A study of Mus musculus with 8 samples.

Results

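The genes described here encode the enzymes with which the liver makes drugs, hormones, bile pigments and bile acids more water-soluble: the UDP-glucuronosyltransferases (UGT), the cytosolic sulfotransferases (SULT), the glutathione S-transferases (GST) and the flavin-containing monooxygenases (FMO). They were chosen by symbol alone: Ugt1 or Ugt2 followed by a letter, Sult or Fmo followed by a number, and Gst followed by the letter a, k, m, o, p, t or z and a number. Of the 30266 genes in the table, 63 had such a symbol. At least 10 reads in 4 or more of the 8 libraries were found for 54 of the 63: 15 of 18 UGT, 12 of 16 SULT, 22 of 23 GST and 5 of 6 FMO genes. One of the GST genes, Gstm2-ps1, is annotated as a pseudogene. Of these 54, 53 had enough reads for the test, and Sult2a6 did not. The 9 genes that stayed below the read limit were Ugt1a2, Ugt1a8, Ugt2a1, Sult2a1, Sult2a2, Sult2a5, Sult6b2, Gstt4 and Fmo6. Sult2a6 and Sult4a1 stood just inside that limit, with 4 libraries at 10 reads or more, and Sult6b2 and Ugt1a2 just outside it, with 3.

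Liver RNA was sequenced from 8-week-old male mice 4 h after recombinant FGF21 (rFGF21, 1.0 mg/kg, 4 libraries) or after the vehicle, labelled PBS (4 libraries). Every mouse in either group carried the genotype Mdr2-/-, so the comparison is one of hormone against vehicle in cholestatic animals, and livers of mice with a working gene were not analysed here. Mdr2 is the older name of Abcb4, which carries phospholipid into bile; without it, bile injures the ducts and the liver becomes inflamed and scarred. FGF21 is a hormone of fasting and stress, and the study's title ties the treated injury to the receptor FGFR4 and the kinase JNK.

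Conjugation is the second step of detoxification. UGT enzymes of the endoplasmic reticulum add glucuronic acid from UDP-glucuronate; Ugt1a1 does so for bilirubin, and the Ugt2 enzymes act on steroids, bile acids and many drugs. SULT enzymes of the cytosol add sulfate from the donor PAPS to phenols, catecholamines, steroids and bile acids. GST enzymes add glutathione to reactive electrophiles. FMO enzymes do not conjugate: they oxidise nitrogen and sulfur atoms, and they are kept here as a class beside the conjugating ones. In cholestasis, glucuronides and sulfates are routes by which bilirubin and bile acids can leave the liver cell.

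The upstream sequences of 4 Ugt2b genes are shown first, because they resemble each other. Of the 4, Ugt2b5 passed the test described below, as lower after rFGF21. Ugt2b36, Ugt2b38 and Ugt2b37 did not pass (edgeR adjusted p = 0.196, 0.0961 and 0.576). Their log2 fold changes were -0.28 ± 0.11, -0.37 ± 0.11 and 0.37 ± 0.31 (SE). A link between these sequences and the levels was not tested. RefSeq promoter sequences (build GRCm38.p6) were matched for 46 of the 54 genes, each from 250 bases before to 50 bases after the annotated start. In the 4 stretches below, the last base printed is the base before the RefSeq start, and capitals mark the letters AGGTCA, the core hexamer recognised by many nuclear receptors.
Ugt2b5 chr5:87140341-87140440 (minus strand): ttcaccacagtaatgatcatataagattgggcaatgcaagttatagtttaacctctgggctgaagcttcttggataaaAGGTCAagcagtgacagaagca
Ugt2b36 chr5:87092556-87092655 (minus strand): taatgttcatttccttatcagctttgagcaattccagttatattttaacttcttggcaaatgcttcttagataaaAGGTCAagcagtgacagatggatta
Ugt2b37 chr5:87254789-87254888 (minus strand): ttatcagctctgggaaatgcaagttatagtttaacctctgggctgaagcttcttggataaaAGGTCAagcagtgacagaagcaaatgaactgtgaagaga
Ugt2b38 chr5:87424204-87424303 (minus strand): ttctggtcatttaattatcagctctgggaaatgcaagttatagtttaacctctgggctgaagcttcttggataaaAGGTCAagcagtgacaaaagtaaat
The 4 stretches resemble each other, with a run of 22 bases, gataaaAGGTCAagcagtgaca, common to all of them, so they are not independent cases. Outside that run the likeness varies between the genes, and it was not measured. The hexamer began 22 bases before the start in Ugt2b5, 25 in Ugt2b36, 39 in Ugt2b37 and 25 in Ugt2b38. With Ugt2b35, where it began 215 bases before the start, 5 of the 8 Ugt2 promoters held it on either strand. It was found in 11 of the 46 promoters of conjugation enzyme genes (23.9%) and in 16.3% of 32851 RefSeq promoters of the same length. A match of letters is a description of the sequence and not a binding site.

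The Ugt1a genes each have a first exon and promoter of their own and share the remaining exons. In their upstream stretches, capitals mark GTTAAT or its reverse complement ATTAAC, letters that form part of the sequence bound by the hepatocyte factor HNF1.
Ugt1a1 chr1:88211839-88211958 (plus strand): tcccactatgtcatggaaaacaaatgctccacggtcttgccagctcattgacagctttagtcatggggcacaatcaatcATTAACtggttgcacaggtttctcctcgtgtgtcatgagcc
Ugt1a6a chr1:88134689-88134808 (plus strand): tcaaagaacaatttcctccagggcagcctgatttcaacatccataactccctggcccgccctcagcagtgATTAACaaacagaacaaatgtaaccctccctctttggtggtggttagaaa
Ugt1a9 chr1:88070659-88070778 (plus strand): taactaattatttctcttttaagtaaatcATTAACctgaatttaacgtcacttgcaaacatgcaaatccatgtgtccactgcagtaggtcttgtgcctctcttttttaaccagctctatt
Ugt1a10 chr1:88055291-88055410 (plus strand): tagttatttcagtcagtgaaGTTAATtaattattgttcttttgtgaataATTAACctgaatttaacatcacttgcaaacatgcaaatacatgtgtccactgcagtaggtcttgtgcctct
These letters were present in 4 of the 6 Ugt1a promoters matched, in 9 of the 46 promoters of conjugation enzyme genes (19.6%) and in 7.1% of all promoters. Ugt1a9 and Ugt1a10 hold them in similar surroundings. The upstream stretch of Sult1b1, a sulfotransferase of the Ugt2 neighbourhood on chromosome 5, holds the reverse complement TGACCT in capitals, 123 bases before the start.
Sult1b1 chr5:87538196-87538345 (minus strand): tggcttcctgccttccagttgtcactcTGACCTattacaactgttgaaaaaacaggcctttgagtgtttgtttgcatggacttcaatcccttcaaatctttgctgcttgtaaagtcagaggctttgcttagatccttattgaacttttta
The promoter of Sult2a8, the gene with the widest difference among those that passed the test, held neither AGGTCA nor GTTAAT in its window. GCGTG, the core of the sites of the aryl hydrocarbon receptor, stood in 9 of 46 promoters (19.6%) against 32.4% of all promoters, and TGACNNNGC, the core of the antioxidant response element, in 2 of 46 (4.35%) against 12.4%. Both strands were read for every motif, and overlapping matches were counted as found.

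The 8 libraries held 62756328 to 73313449 reads. Levels per length are given as FPKM, computed from the read counts with annotated exon lengths and library totals. The hepatocyte markers summed to 29980 to 34620 FPKM in rFGF21 livers and to 29780 to 35120 FPKM in PBS livers. Most of that sum was Alb, at 23520 FPKM in rFGF21 livers and 21630 FPKM in PBS livers. Alb had a log2 fold change of 0.04 ± 0.14 (SE). Below 0 were 5 of the 6 markers, with a median of -0.16, against 63.9% of tested genes averaging at least 10 FPKM. None of the 6 passed the test (edgeR: 1 at an unadjusted p under 0.05; DESeq2: 0). That 1 was Tat, with a log2 fold change of -0.997 ± 0.368 (SE; edgeR adjusted p = 0.174). Photoreceptor genes were at or near 0, with Crx and Rcvrn at 0 reads in all 8 libraries, although the extraction protocol in the labels speaks of another organ. Some markers of other cells lay higher after rFGF21 without passing the edgeR test. Of all genes tested, 8.92% lay higher at an unadjusted p under 0.05 (edgeR). DESeq2 called 4.17% higher of the genes to which it gave an adjusted p. The 6 cholangiocyte markers were all above PBS, with a median log2 fold change of 0.62, 5 of them at an unadjusted p under 0.05 (edgeR; DESeq2 called 2), and a sum of 129 to 215 FPKM in rFGF21 livers against 86.1 to 147 FPKM in PBS livers. The erythroid genes summed to 412 to 688 FPKM in rFGF21 livers against 260.8 to 371 FPKM in PBS livers. Of the 3, 2 were at an unadjusted p under 0.05 (edgeR) and 2 were called higher by DESeq2. Alas2 was level, with a log2 fold change of 0.04 ± 0.16 (SE). The stellate and fibroblast markers summed to 99.3 to 164 FPKM in rFGF21 livers against 74.2 to 109 FPKM in PBS livers, with 3 of 6 at an unadjusted p under 0.05 (edgeR) and 2 called higher by DESeq2. The 3 at an unadjusted p under 0.05 were the collagens Col1a1, Col1a2 and Col3a1. Col1a1 and Col1a2 lay wholly above PBS with TMM scaling, against 5.9% of all genes. Lrat, Acta2 and Dcn had log2 fold changes of 0.20 ± 0.18, 0.22 ± 0.35 and -0.10 ± 0.11 (SE). Of the 4 T and NK markers DESeq2 called 1 higher. The neutrophil markers summed to 9.21 to 24.5 FPKM in rFGF21 livers against 4.77 to 13.6 FPKM in PBS livers, with 1 of 4 tested at an unadjusted p under 0.05 (edgeR) and 0 called by DESeq2. In whole liver, fewer cells of a type and less RNA per cell cannot be told apart, and the part of these cells in the results below was not tested.

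Measured per length, the most abundant transcript of the whole group was Gstm1, a mu-class transferase, at 2294 ± 347 FPKM in rFGF21 livers and 2983 ± 707 FPKM in PBS livers (SD, n = 4 each). Gstm3, at 995 ± 155 FPKM after rFGF21 and 1149 ± 447 FPKM after PBS, and Gstp1, at 794 ± 79.4 FPKM after rFGF21 and 1002 ± 152 FPKM after PBS, came next, and these neighbours overlapped within their SDs in both groups. Among UGT genes, Ugt2b36 led with 287 ± 19.2 FPKM in rFGF21 livers and 329 ± 34.0 FPKM in PBS livers, followed by Ugt2b5 with 229 ± 10.1 FPKM in rFGF21 livers and 310.2 ± 33.0 FPKM in PBS livers. Sult1a1, which sulfonates phenols, led its class with 355 ± 78.2 FPKM in rFGF21 livers and 347 ± 47.3 FPKM in PBS livers, and Fmo5 led the FMO class with 232 ± 19.0 FPKM in rFGF21 livers and 218 ± 31.1 FPKM in PBS livers. Of the 54 genes, 13 averaged at least 100 FPKM over the 8 libraries, 37 at least 10, and 8 less than 1. The group is therefore made mostly of highly expressed liver genes, and it was read against genes of like level as well as against all genes.

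After rFGF21, 5 of the 53 tested genes had lower transcript levels and none had higher ones (adjusted p under 0.05 by the quasi-likelihood test of edgeR, with Benjamini-Hochberg adjustment over 18315 genes). They were the sulfotransferases Sult2a8 and Sult1b1, the glucuronosyltransferases Ugt2b5 and Ugt2b35, and the glutathione transferase Gstp2. Over all genes, 2.82% passed, 1.67% in the lower direction and 1.15% in the higher. At an unadjusted p under 0.05, 26 of the 53 lay lower (49.1%, against 9.86% of all genes) and none higher (against 8.92%). DESeq2 called 15 lower and none higher of the 48 to which it gave an adjusted p, against 4.97% and 4.17% of all genes with one. By limma-voom, 6 of the 53 were lower and none higher, against 1.58% and 1.08% of all genes. The log2 fold change was below 0 for 43 of the 53, with a median of -0.32; over all genes it was below 0 for 49.6%, with a median of 0.00. All 4 rFGF21 libraries lay below all 4 PBS libraries for 18 of the 53 (34.0%), against 6.39% of all genes, and none lay wholly above, against 5.9%. These counts hold for TMM-scaled levels. With counts scaled by library totals, an alternative added after seeing the data, 10 of the 53 lay wholly below (18.9%, against 3.95% of all genes) and 1, Sult1e1, wholly above (against 9.09%). The 8 genes that did not overlap with TMM scaling but did with library totals were Fmo1, Gsta3, Gsto1, Gstp1, Ugt1a9, Ugt2b34, Ugt2b36 and Ugt2b38.

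Genes of high expression leaned lower in these livers as a whole, which narrows that contrast. Among the 3605 tested genes averaging at least 10 FPKM, 63.9% were below 0, 13.5% had all rFGF21 libraries below all PBS libraries, 4.19% passed the test in the lower direction and the median was -0.07. Of the 37 conjugation enzyme genes at that level, 34 were below 0 (91.9%), 15 did not overlap (40.5%; 7 with library totals), 4 passed the test (10.8%) and the median was -0.34. The 16 tested genes of lower level had 9 below 0 and a median of -0.17. On the log2(FPKM + 1) scale, where libraries are scaled by total reads, 39 of the 53 were below 0 with a median of -0.23, against 0.04 for all genes, and no gene of the group passed (limma).

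**Figure D1:**
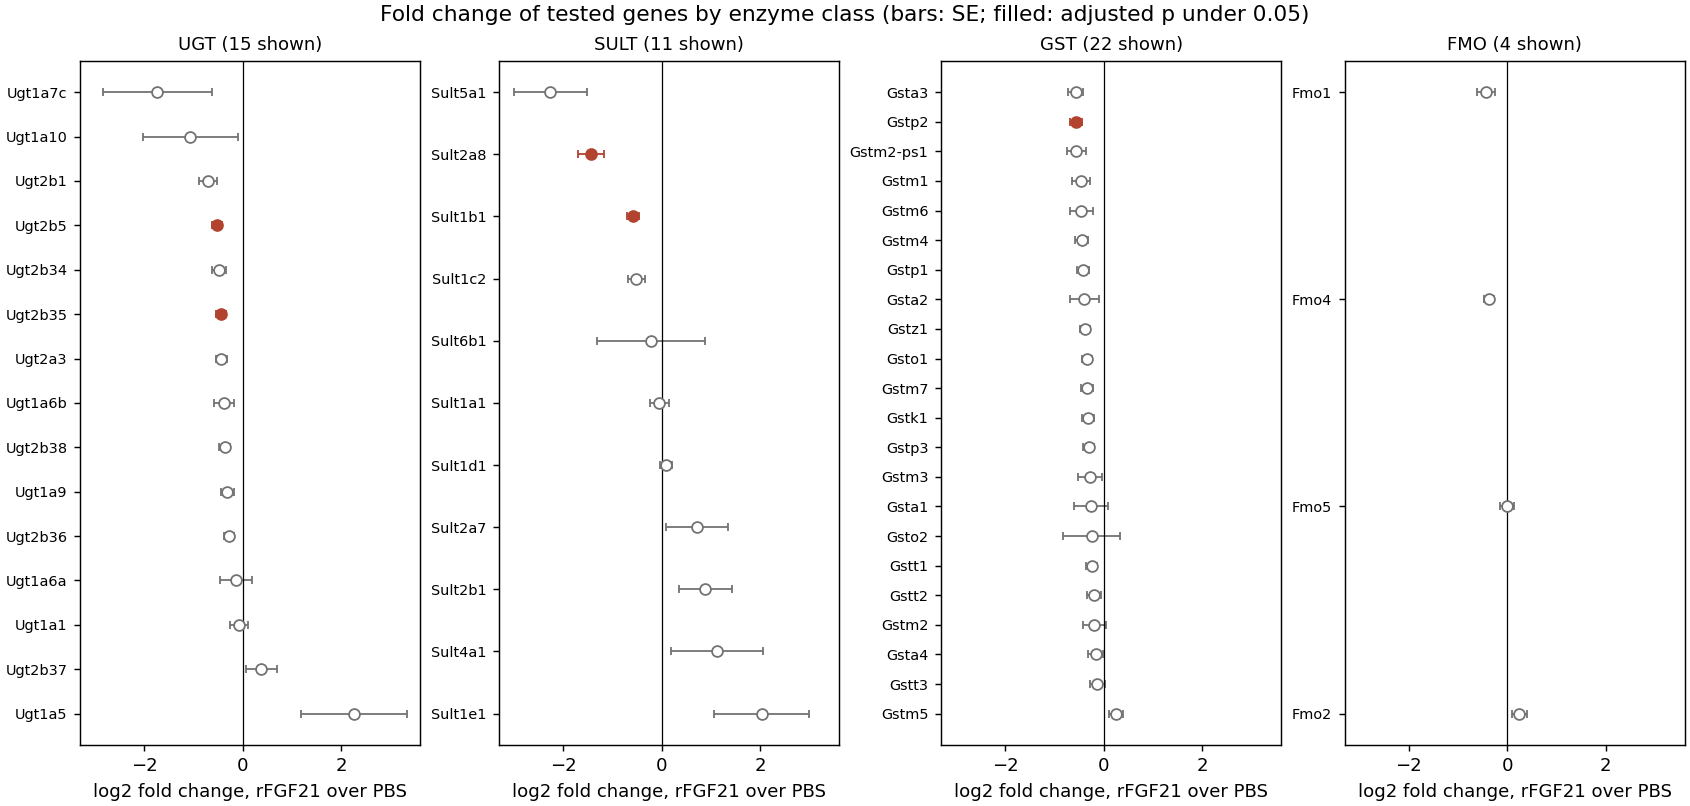
Log2 fold change (x axis, rFGF21 over PBS) of 52 of the 53 tested genes in 4 panels by enzyme class, one gene per row; points are edgeR estimates, bars are SE, and filled red points passed an adjusted p of 0.05. The GST points cluster to the left of 0 with short bars, while the SULT genes spread from -2.26 to 2.03.

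The classes differed in how evenly they lay below PBS. Of 22 GST genes, 21 were below 0 with TMM scaling (median -0.33) and 21 on FPKM values (median -0.235). Of 15 UGT genes, 13 were with TMM scaling (median -0.38) and 11 on FPKM values (median -0.264). Of 11 tested SULT genes, 6 were below 0 with TMM scaling (median -0.05) and 5 on FPKM values (median 0.02). Of 5 FMO genes, 3 were with TMM scaling (median -0.00) and 2 on FPKM values (median 0.09). The difference between classes was not tested.

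Among the Ugt2 genes, which make the enzymes for steroids and bile acids, 2 of 8 fell, against 1.67% of all genes. With TMM scaling, 7 of 8 had every rFGF21 library below every PBS library. The share was 6.39% of all genes and 13.5% of those averaging at least 10 FPKM. With library totals it was 4 of 8, against 3.95% of all genes. Ugt2b5 was read at 437, 404, 421 and 390 CPM (read counts scaled to library size with TMM factors) in the rFGF21 livers, against 601, 515, 579 and 682 CPM in the PBS livers. The highest rFGF21 library lay below the lowest PBS library, and the rFGF21 values were the tighter group. The log2 fold change was -0.52 ± 0.11 (SE; edgeR adjusted p = 0.0306), a fall to 69.5% of the PBS level. Of the 50-base stretches of its transcript, 41.7% also occur in other genes, most of them in Ugt2b38, so reads may be split between these copies. Without any of the 4 rFGF21 libraries, or PBS library 1 or 5, the fall was of similar size and the edgeR adjusted p was 0.0645 to 0.0885.

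Ugt2b35 was read at 176, 171, 185 and 162 CPM in rFGF21 livers, against 229, 253, 258 and 202 CPM in PBS livers. The groups did not overlap, but rFGF21 library 3 and PBS library 5 came close. It fell by 0.44 ± 0.10 on the log2 scale (edgeR adjusted p = 0.0487), and 0.725% of its 50-base stretches occur elsewhere. The call held without PBS library 5 and was lost without any other library (edgeR adjusted p = 0.0722 to 0.136).

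Ugt2b1, none of whose 50-base stretches occurs in another gene, had the widest difference among Ugt2 genes but did not pass. Its values were 217, 239, 174 and 168 CPM in rFGF21 livers, against 337, 241, 294 and 426 CPM in PBS livers. PBS library 2 nearly met rFGF21 library 2. The log2 fold change was -0.70 ± 0.18 (edgeR adjusted p = 0.0651), and DESeq2 called it. Ugt2b36, the UGT gene of highest level, was read at 592, 558, 634 and 513 CPM in rFGF21 livers, against 714, 650, 639 and 782 CPM in PBS livers. Here the gap between the groups was narrow, and the log2 fold change was -0.28 ± 0.11 (edgeR adjusted p = 0.196).

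**Figure D2:**
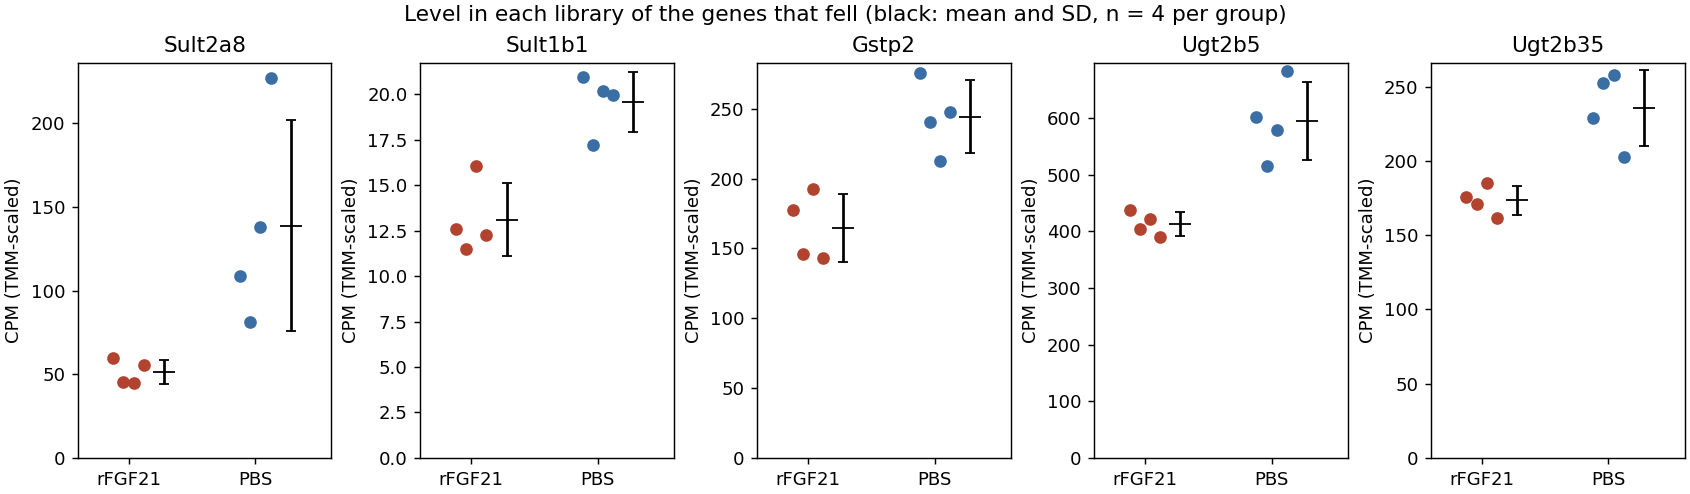
TMM-scaled CPM (y axes, starting at 0) of the 5 genes that passed the test, one point per library with rFGF21 left of PBS; black marks are the mean and SD of 4 libraries. In each panel every rFGF21 point lies below every PBS point; for Sult2a8 the PBS points spread from 81.4 to 227 CPM while the rFGF21 points stay between 44.9 and 59.4 CPM.

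The 8 Ugt2 genes lie with Sult1b1, Sult1d1 and Sult1e1 in a stretch of chromosome 5 from base 86889767 to base 87591594 (GRCm38, as the table gives it), which holds 26 genes of the table. Of the 11 conjugation enzyme genes in it that passed the read limit, 8 were below 0, against 49.6% of all genes. In all 8, every rFGF21 library lay below every PBS library with TMM scaling, against 6.39% of all genes. In 5 of them this also held with library totals, against 3.95%. The test was passed by 3 of the 11, against 1.67% of all genes in the lower direction. Ugt2b34, Ugt2a3 and Ugt2b38, named here after their values were seen, had log2 fold changes of -0.47 ± 0.14, -0.44 ± 0.11 and -0.37 ± 0.11 (edgeR adjusted p = 0.107, 0.0613 and 0.0961). The 3 exceptions lie inside the same stretch. Ugt2b37 was read at 69.0, 21.9, 27.1 and 44.3 CPM in rFGF21 livers, against 34.6, 39.2, 28.4 and 23.1 CPM in PBS livers. Its groups overlapped widely (0.37 ± 0.31, edgeR adjusted p = 0.576). The upstream stretch of Ugt2b37, shown above, resembles those of Ugt2b5 and Ugt2b38. Sult1d1, a catecholamine sulfotransferase, was level at 104 ± 16.5 CPM in rFGF21 livers and 98.3 ± 10.2 CPM in PBS livers (SD, n = 4 each). Sult1e1, the estrogen sulfotransferase, had 136 reads over the rFGF21 libraries and 29 over the PBS libraries, of which 2 held no read (2.03 ± 0.97, edgeR adjusted p = 0.289).

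**Figure D3:**
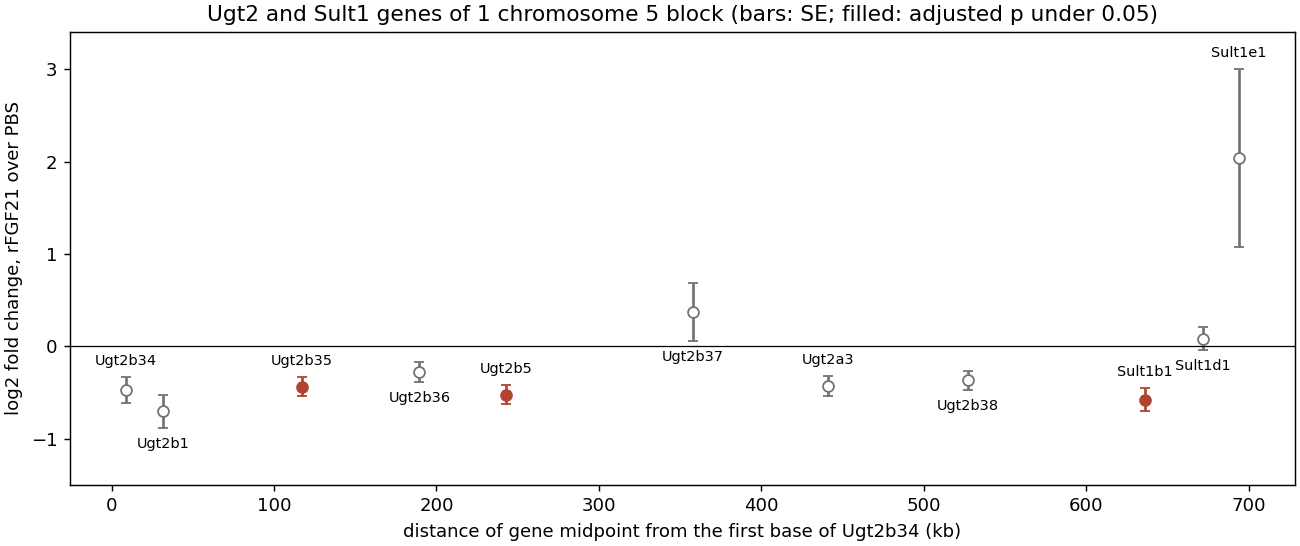
Log2 fold change (y axis, rFGF21 over PBS, bars are SE) against the distance in kilobases of each gene's midpoint from the first base of Ugt2b34 (x axis) for the 11 genes of the chromosome 5 stretch; filled red points passed an adjusted p of 0.05. Ugt2b37, Sult1d1 and Sult1e1 lie above 0 and the other 8 below it.

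None of the 7 tested Ugt1a genes passed the test (edgeR: 1 lower and 0 higher at an unadjusted p under 0.05; DESeq2 and limma-voom: 0), and 6 were below 0 with TMM scaling, 4 on FPKM values. Their transcripts share 58.2% to 100% of 50-base stretches with one another, all of Ugt1a6a being found in another Ugt1a gene, so the split of reads between them is uncertain. Ugt1a9, the most abundant, was read at 315, 316, 335 and 333 CPM in rFGF21 livers, against 357, 373, 359 and 529 CPM in PBS livers. PBS library 5 stood far above the other libraries of its group, yet all PBS values exceeded all rFGF21 values (-0.32 ± 0.13, edgeR adjusted p = 0.232). In that library Ugt1a9 took 69.0% of all Ugt1a reads, against 45.8% to 48.9% in rFGF21 libraries and 44.2% to 47.2% in the other PBS libraries, while Ugt1a6a took 7.05%. Ugt1a1, the bilirubin enzyme, was read at 112, 129, 146 and 91.6 CPM in rFGF21 livers, against 120, 108, 172 and 104 CPM in PBS livers. These ranges overlapped almost wholly (-0.07 ± 0.18, edgeR adjusted p = 0.872; 0.02 on FPKM values).

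Ugt1a5 varied widely within both groups. It had 29.5, 9.36, 1.57 and 56.9 CPM in rFGF21 livers, against 1.41, 0.928, 16.7 and 1.43 CPM in PBS livers. Single libraries of both groups were high, and the log2 fold change of 2.26 ± 1.09 did not pass (edgeR adjusted p = 0.294); without PBS library 4 it was 4.28 (0.0635). Ugt1a2, below the read limit, was likewise near 0 in most libraries and at 16.7 CPM in rFGF21 library 3. Summed over the Ugt1a genes, the level was 688, 647, 705 and 696 CPM in rFGF21 livers, against 806, 790, 792 and 767 CPM in PBS livers. The sums did not overlap between groups with TMM scaling. With library totals they did, at 643.8 to 759 CPM in rFGF21 livers and 728 to 805 CPM in PBS livers. This sum was formed after the values were seen and was not tested. How reads shared between Ugt1a genes were counted is not known, so the sum may still depend on it.

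**Figure D4:**
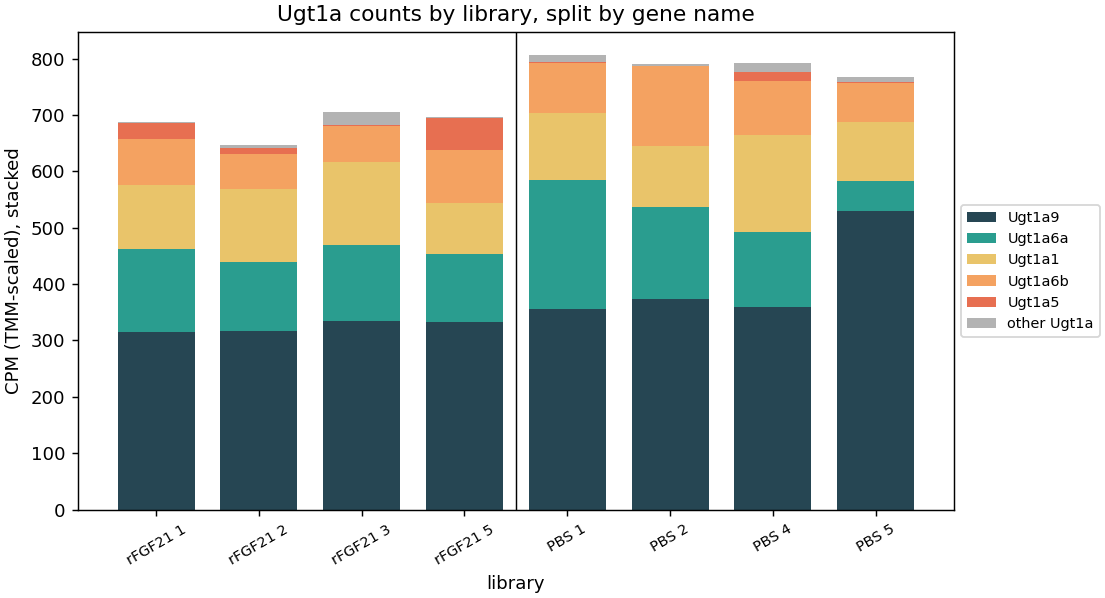
TMM-scaled CPM of the Ugt1a genes stacked for each library (x axis: 4 rFGF21 libraries, then 4 PBS libraries; y axis from 0), coloured by gene. Stack heights are 647 to 705 CPM in rFGF21 livers and 767 to 806 CPM in PBS livers, while the share of Ugt1a9, Ugt1a6a and Ugt1a5 shifts from library to library.

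Among sulfotransferases, 2 of the 11 tested fell, against 1.67% of all genes. Sult2a8, which in mouse liver sulfonates bile acids, was read at 59.4, 45.6, 44.9 and 55.5 CPM in rFGF21 livers, against 109, 81.4, 138 and 227 CPM in PBS livers. The rFGF21 livers held similar amounts, whereas the PBS livers were widely spread, the lowest of them still above the highest rFGF21 liver. The mean was 51.4 ± 7.25 CPM after rFGF21 and 139 ± 63.1 CPM after PBS (SD, n = 4 each), a 2.70-fold lower fitted level (log2 fold change -1.43 ± 0.26, edgeR adjusted p = 0.0226). With PBS library 5, the highest, left out, the estimate was -1.08 and the call held (0.0287). When any one of the 4 rFGF21 libraries was dropped, the log2 fold change stayed between -1.51 and -1.37, and the adjusted p was 0.0601 to 0.0624. No 50-base stretch of its transcript occurs in another gene.

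Sult1b1, which sulfonates thyroid hormone and small phenols, was read at 12.6, 11.5, 16.0 and 12.3 CPM in rFGF21 livers, against 20.9, 17.2, 20.2 and 19.9 CPM in PBS livers. Only rFGF21 library 3 came near the PBS values. It fell by 0.58 ± 0.12 on the log2 scale (edgeR adjusted p = 0.0366) and shares no 50-base stretch. Without rFGF21 library 1, 2 or 5, or PBS library 1, 4 or 5, the edgeR adjusted p was 0.0617 to 0.113. Its neighbour in class Sult1c2 lay lower without passing, at 7.22 ± 1.87 CPM in rFGF21 livers and 10.3 ± 0.625 CPM in PBS livers (SD, n = 4 each; -0.52 ± 0.18, edgeR adjusted p = 0.144).

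Sult1a1, by far the most abundant sulfotransferase, showed no change in level that the test could find. It was read at 467, 668, 593 and 369 CPM in rFGF21 livers, against 507, 430, 661 and 564 CPM in PBS livers. The rFGF21 libraries spanned the whole range of the PBS ones (-0.05 ± 0.19, edgeR adjusted p = 0.929; 0.02 on FPKM values). Sult5a1 had the lowest log2 fold change of all, -2.26 ± 0.74, but did not pass (edgeR adjusted p = 0.133). It was read at 2.62, 0.367, 2.83 and 1.80 CPM in rFGF21 livers, against 4.03, 3.21, 4.34 and 25.03 CPM in PBS livers. PBS library 5 carried most of that difference: without it the estimate was -1.01 (edgeR adjusted p = 0.358). The remaining SULT genes were at most 0.297 FPKM in the mean of either group apart from Sult2a7, at 0.358 ± 0.282 FPKM in rFGF21 livers and 0.199 ± 0.0945 FPKM in PBS livers, and Sult1e1, at 0.381 ± 0.133 FPKM in rFGF21 livers and 0.0852 ± 0.102 FPKM in PBS livers (SD, n = 4 each).

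Glutathione transferases lay below PBS as a class in a narrow band. The log2 fold changes of the 21 genes below 0 ran from -0.57 to -0.13. In that direction 12 of 22 passed an unadjusted p of 0.05 (edgeR), against 9.86% of all genes. After adjustment 1 of 22 passed, against 1.67% of all genes. Gstp2, a pi-class transferase, was read at 178, 146, 192 and 143 CPM in rFGF21 livers, against 276, 241, 213 and 248 CPM in PBS livers. The groups did not overlap, and it fell by 0.57 ± 0.12 on the log2 scale (edgeR adjusted p = 0.0406). Of its 50-base stretches, 72.6% occur in other transcripts, mostly those of Gstp1, so reads may be split between the pair. Without rFGF21 library 1, 2 or 5, or PBS library 1, 2 or 5, the edgeR adjusted p was 0.0759 to 0.111.

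Gstp1, known in cell studies to bind the kinase JNK and restrain it, was read at 1332, 1082, 1274 and 1095 CPM in rFGF21 livers, against 1823, 1535, 1355 and 1654 CPM in PBS livers. It did not overlap between groups (-0.41 ± 0.12, edgeR adjusted p = 0.104). Gstp3, which shares no stretch with either, was read at 557, 436, 451 and 487 CPM in rFGF21 livers, against 667, 565, 599 and 556 CPM in PBS livers. rFGF21 library 1 lay just above the lowest PBS library (-0.31 ± 0.11, edgeR adjusted p = 0.165). All 3 pi-class genes thus lay lower at an unadjusted p under 0.05, and 1 passed the adjusted test.

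Gsta3, the alpha-class enzyme that protects mice from aflatoxin, was read at 436, 323, 452 and 447 CPM in rFGF21 livers, against 665, 569, 748 and 479 CPM in PBS livers. rFGF21 library 2 was low in its group, and PBS library 5 nearly met the rFGF21 values (-0.57 ± 0.16, edgeR adjusted p = 0.0859). Gsta4, which clears the lipid peroxidation product 4-hydroxynonenal, overlapped between groups at 100.2 ± 13.3 CPM in rFGF21 livers and 112 ± 24.2 CPM in PBS livers (SD, n = 4 each). Gsta1 and Gsta2 share 89.7% and 64.2% of their 50-base stretches with other genes and varied up to several-fold within a group. Gsta2 ran from 35.2 to 95.7 CPM in rFGF21 livers and from 58.7 to 127 CPM in PBS livers (-0.39 ± 0.30, edgeR adjusted p = 0.525), and Gsta1 from 30.9 to 71.2 CPM in rFGF21 livers and from 25.9 to 86.5 CPM in PBS livers (-0.27 ± 0.34, edgeR adjusted p = 0.736).

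The mu class showed the same lean with wider spread. Gstm1 was read at 3497, 2670, 3822 and 3142 CPM in rFGF21 livers, against 5213, 4663, 5209 and 2996 CPM in PBS livers. PBS library 5 lay among the rFGF21 values, and the other 3 PBS libraries lay above all of them. The log2 fold change was -0.46 ± 0.18 (edgeR adjusted p = 0.201), and -0.61 without that library (edgeR adjusted p = 0.0658). Gstm4 followed the same arrangement, with 40.1, 35.2, 44.4 and 42.1 CPM in rFGF21 livers against 61.7, 58.4, 59.4 and 41.4 CPM in PBS livers (-0.45 ± 0.13, edgeR adjusted p = 0.0994). Gstm7 was at 38.9 ± 1.96 CPM in rFGF21 livers and 49.1 ± 8.18 CPM in PBS livers (SD, n = 4 each; -0.34 ± 0.12, edgeR adjusted p = 0.151), Gstm3 overlapped (-0.28 ± 0.24, edgeR adjusted p = 0.578), and the pseudogene Gstm2-ps1 had a log2 fold change of -0.55 ± 0.20 (edgeR adjusted p = 0.170). Of its 50-base stretches, 46.9% occur elsewhere, mostly in Gstm1. Gstm5 alone of the GST genes lay above 0, at 18.3 ± 2.49 CPM in rFGF21 livers and 15.3 ± 2.89 CPM in PBS livers (0.25 ± 0.15, edgeR adjusted p = 0.387).

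PBS library 5 was the lowest of the 4 PBS libraries for 11 of the 12 Gsta and Gstm genes, and PBS library 1 the highest for 9 of them. With PBS library 5 left out, a choice made after seeing the data, 26 of the 53 tested genes had all rFGF21 libraries below all PBS libraries, against 18 with all 8 libraries and 18 to 20 without any other library; the share over all genes was then 8.94%. On the rFGF21 side, library 5 was the lowest of its group for 25 of the 53 genes with TMM scaling. That library had the largest TMM factor (1.09), which lowers its scaled values, so the count depends on the scaling. Gstz1, for one, was lowest there in CPM (383) but highest there in FPKM (82.2).

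Outside these classes, Gstz1, the maleylacetoacetate isomerase of tyrosine breakdown, was read at 405, 389, 409 and 383 CPM in rFGF21 livers, against 528, 456, 555 and 524 CPM in PBS livers. The rFGF21 values hardly differed from each other and lay below every PBS value (-0.38 ± 0.09, edgeR adjusted p = 0.0613; called by DESeq2 and limma-voom). Gsto1, which reduces dehydroascorbate, did not overlap either with TMM scaling but did with library totals (-0.34 ± 0.10, edgeR adjusted p = 0.0942). The other members of these classes, Gstk1, Gstt1, Gstt2, Gstt3 and Gsto2, had log2 fold changes from -0.32 to -0.13.

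**Figure D5:**
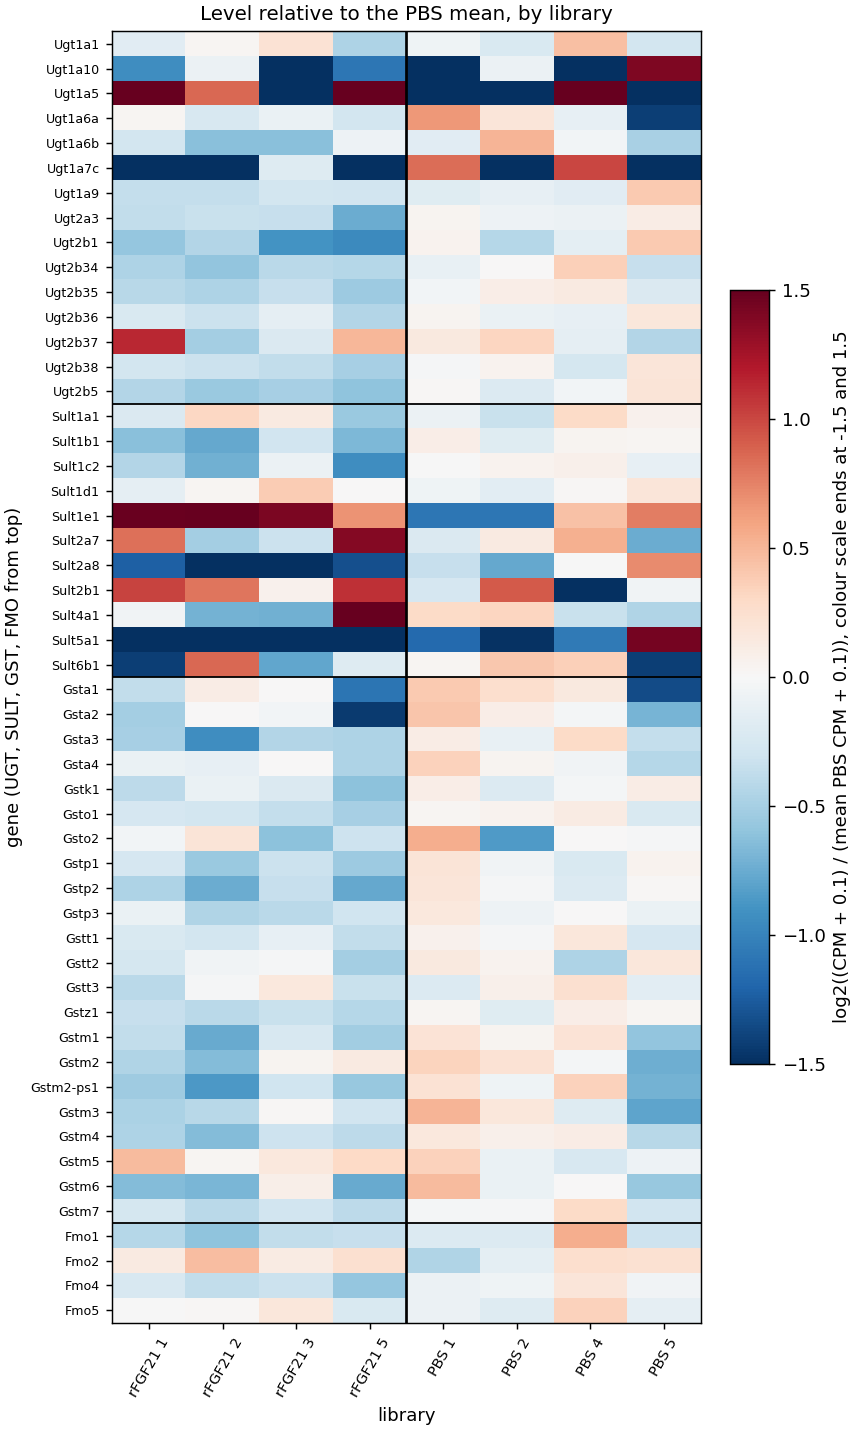
Level of 52 of the 53 tested genes (rows: UGT, SULT, GST, FMO from the top) in each library (columns: 4 rFGF21, then 4 PBS) as log2 of CPM + 0.1 over the PBS mean + 0.1; blue is below and red above the PBS mean, and colours end at -1.5 and 1.5. Most Ugt2 and Gst cells in the rFGF21 columns are blue, with Gstm5 red in all 4 and Ugt2b37 red in rFGF21 libraries 1 and 5, and PBS library 5 is also blue in most Gsta and Gstm rows; the rows with strong red and blue side by side are genes of low or unstable counts such as Ugt1a5, Ugt1a7c and Sult4a1.

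Of the 5 FMO genes none passed (edgeR: 2 lower and 0 higher at an unadjusted p under 0.05; DESeq2: 1 lower, Fmo4; limma-voom: 0). Fmo5, the dominant one, was read at 1281, 1299, 1447 and 1096 CPM in rFGF21 livers, against 1212, 1118, 1630 and 1171 CPM in PBS livers. Its groups covered the same range (-0.00 ± 0.14, edgeR adjusted p = 0.996), and the sign depended on the scaling. Fmo1 was read at 164, 145, 170 and 174 CPM in rFGF21 livers, against 191, 191, 321 and 178 CPM in PBS livers. The groups did not overlap, but PBS library 4 stood far above the rest (-0.43 ± 0.18, edgeR adjusted p = 0.220). Fmo4 was at 14.5 ± 1.44 CPM in rFGF21 livers and 18.8 ± 1.70 CPM in PBS livers (SD, n = 4 each; -0.37 ± 0.11, edgeR adjusted p = 0.0972). Fmo2 was at 59.0 ± 6.67 CPM in rFGF21 livers and 49.8 ± 11.01 CPM in PBS livers (0.24 ± 0.15, edgeR adjusted p = 0.428). With TMM scaling, PBS library 4 was the highest PBS library for all 5 FMO genes. On FPKM values, Fmo2 was higher in PBS library 5 (9.93) than in PBS library 4 (9.74).

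Genes that feed or follow conjugation were read from lists. Of all genes tested, 1.67% passed the edgeR test as lower and 1.15% as higher. At an unadjusted p under 0.05 (edgeR) these shares were 9.86% and 8.92%. DESeq2 called 4.97% lower and 4.17% higher of the genes to which it gave an adjusted p. The makers and removers of UDP-glucuronate held no gene that passed among 10 tested (edgeR: 2 lower at an unadjusted p under 0.05; DESeq2: 1; limma-voom: 0), and Pgm1, a phosphoglucomutase, had the smallest p (-0.26 ± 0.09, edgeR adjusted p = 0.145). Of 11 genes of sulfate supply and removal, 1 fell: Suox, sulfite oxidase, which makes sulfate from sulfite, was at 48.0 ± 1.44 CPM in rFGF21 livers and 62.3 ± 2.86 CPM in PBS livers (-0.38 ± 0.07, edgeR adjusted p = 0.0272). Of 21 genes of glutathione supply and turnover none passed (edgeR: 6 lower and 1 higher at an unadjusted p under 0.05; DESeq2: 3 lower; limma-voom: 0), and Chac2, which degrades glutathione, had the smallest p (-0.45 ± 0.11, edgeR adjusted p = 0.0626). Without any of the 4 rFGF21 libraries, or PBS library 1 or 5, Suox missed the threshold (edgeR adjusted p = 0.0559 to 0.0954).

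Of 13 genes of the mercapturate steps, which turn glutathione conjugates into N-acetylcysteine conjugates, 2 fell and 1 rose. Nat8f2, of the family whose human member NAT8 acetylates cysteine conjugates, was read at 229, 222, 269 and 194 CPM in rFGF21 livers, against 434, 450, 518 and 472 CPM in PBS livers. The gap between the groups was wider than either group's own range, and the log2 fold change was -1.04 ± 0.12 (edgeR adjusted p = 0.00504). Acy3, which removes the acetyl group from mercapturates, was at 39.5 ± 5.62 CPM in rFGF21 livers and 61.9 ± 12.03 CPM in PBS livers (-0.65 ± 0.15, edgeR adjusted p = 0.0428). Kyat1, a cysteine conjugate beta-lyase, rose to 69.7 ± 6.49 CPM in rFGF21 livers, against 49.2 ± 5.77 CPM in PBS livers (SD, n = 4 each; 0.50 ± 0.11, edgeR adjusted p = 0.0362). The call of Nat8f2 held whichever library was left out. Acy3 lost its call without any library but PBS library 2 (edgeR adjusted p = 0.0588 to 0.106), and Kyat1 without rFGF21 library 1, 2 or 3 or PBS library 1 or 2 (0.0787 to 0.11).

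Of 26 further conjugating and related enzymes (acetyl-, methyl- and glycine transferases, acyl-CoA synthetases, microsomal GSTs and epoxide hydrolases), 3 fell, none rose, and 24 were below 0 (median -0.32). Below 0 were 49.6% of all genes and 63.9% of those averaging at least 10 FPKM. Glyat, glycine N-acyltransferase, was at 92.2 ± 10.7 CPM in rFGF21 livers and 127 ± 5.39 CPM in PBS livers (-0.46 ± 0.10, edgeR adjusted p = 0.0370). The medium-chain acyl-CoA synthetases Acsm3 and Acsm5, which activate the acids that Glyat conjugates, had log2 fold changes of -0.46 ± 0.09 and -0.49 ± 0.11 (edgeR adjusted p = 0.0322 and 0.0476). Formation of the acyl-CoA and transfer to glycine are successive steps of one route, which was not tested as a whole. Acsm1 and Acsm2 of the same list did not pass (-0.54 ± 0.13 and -0.12 ± 0.46, edgeR adjusted p = 0.0557 and 0.925). The calls of Glyat, Acsm3 and Acsm5 were not stable to the loss of a library. Without any of rFGF21 library 1, 2 or 5 or PBS library 1, all 3 missed the threshold. Over all libraries left out, the adjusted p of lost calls was 0.057 to 0.135 (edgeR). Of 8 exporters of conjugates none passed (edgeR: 3 lower and 1 higher at an unadjusted p under 0.05; DESeq2: 1 lower; limma-voom: 0), with Abcc6 of smallest p (-0.37 ± 0.09, edgeR adjusted p = 0.0628).

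Of 34 regulators of these enzymes, 2 rose and 2 fell. Maff, a small MAF partner of NFE2L2, rose to 15.6 ± 3.28 CPM in rFGF21 livers, against 8.52 ± 1.70 CPM in PBS livers (SD, n = 4 each; 0.88 ± 0.19, edgeR adjusted p = 0.0370), and missed the threshold without rFGF21 library 1, 2 or 5 or PBS library 1, 2 or 5 (0.0522 to 0.113). The repressor Nr0b2 rose as well, and the receptors Nr1i3 (CAR) and Nr1h4 (FXR) fell. Of 19 other known targets of CAR, the aryl hydrocarbon receptor and NFE2L2, Alas1 and Cyp1a2 fell and none rose by edgeR, while DESeq2 called 2 lower and 1 higher. Cyp2b10, a target of CAR named after its values were seen, lay above PBS in every rFGF21 library without passing the edgeR test, at 1.76, 3.47, 6.12 and 2.49 CPM in rFGF21 livers against 1.48, 1.54, 1.71 and 0.568 CPM in PBS livers (1.39 ± 0.43, edgeR adjusted p = 0.114). Left-out libraries ended the calls of Nr1h4 (any rFGF21 library or PBS library 1; edgeR adjusted p = 0.0559 to 0.0653), Alas1 (rFGF21 library 1; 0.0581) and Cyp1a2 (any rFGF21 library or PBS library 1 or 5; 0.0823 to 0.125). Markers of pericentral hepatocytes, the zone where many of these enzymes are most abundant, lay lower in the same livers. All 7 were below 0 (median -0.48), and 2, Glul and Slc1a2, fell, against 1.67% of all genes. Axin2 and Lgr5 had log2 fold changes of -0.15 ± 0.30 and -0.42 ± 0.39 (edgeR adjusted p = 0.836 and 0.625). The list summed to 673 to 1033 FPKM in rFGF21 livers against 940 to 1362 FPKM in PBS livers. Most of that sum was Cyp2e1, at 650 FPKM in rFGF21 livers and 970 FPKM in PBS livers, which did not pass (edgeR adjusted p = 0.0956). Of the 7 periportal markers, 5 were also below 0 (median -0.41), and Cdh1 rose. The periportal list summed to 1594 to 2793 FPKM in rFGF21 livers against 2389 to 3271 FPKM in PBS livers. Among all tested genes averaging at least 10 FPKM, 63.9% were below 0. The part of zonation in the values above was not tested.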

How the data were processed

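RNA sequencing of liver was analysed in 4 libraries after rFGF21 and 4 after PBS. Whole-number read counts for each gene were taken from the table the authors deposited. The submitters' processing notes name Bowtie 0.12.2 and, as genome build, mm8. The table's coordinates are not those of mm8, since 26331 of the 30177 gene identifiers found in GENCODE M21 (GRCm38) had identical coordinates there, and they are therefore given as GRCm38. The counting method, its use of strand and its treatment of reads shared between genes were not given in the sources used here. For near-identical and overlapping genes the counts are therefore uncertain, and the share of each transcript's 50-base stretches found in transcripts of other genes was computed.

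The extraction protocol names retina, while the tissue labels say liver. Column numbers do not match the sample numbers of the labels. Each column was therefore assigned to its group only, and a library is named by its group and column number; 10 other columns of per-library values were not used. They are 8 FPKM columns and the read counts of 2 further libraries, 1 in each group, which have no FPKM column and would exceed the 4 samples of each group in the labels. Separate animals are not stated for the samples, and p-values then cover only the spread between them, which may be technical. No pair of libraries agreed within sampling noise (chi-square over its degrees of freedom at least 47.1).

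Counts were tested with edgeR 4.0.16 in R 4.3.3 (filterByExpr, TMM scaling, quasi-likelihood F test, two-sided, no covariates), adjusted by Benjamini-Hochberg over 18315 genes; an adjusted p under 0.05 counts as changed. Every adjusted p is from this test unless another tool is named. The script was tested on simulated data. CPM is scaled by TMM; log2 fold changes are rFGF21 over PBS, with SE from the F statistic. FPKM was computed here from the deposited counts, the total exon length of each gene in GENCODE M21 and the library total, for all but 89 genes of the table. On FPKM a fold change is on the log2(FPKM + pseudocount) scale, which understates the change of low genes. Alternatives were other scalings and filters, DESeq2 1.42.0, limma 3.58.1 (voom, and log2 FPKM with a pseudocount of 1 or 0.1) and leaving out each library.

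The genes, lists and tests were chosen with earlier results of these data known. Genes named are every member that passed, in each family the 3 of highest FPKM and the 2 of smallest p, a fixed set of 9, and of each related list up to 4 that passed or the 1 of smallest p; other genes were named after their values were seen. No list was tested as a set. The values of 1 member and 1 related gene are not reported here.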

Additional observations from a re-analysis of the deposited data

Results flagged for a closer look

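Among 64 groups of 4 libraries (32 named genes in each treatment group), 7 held a library whose distance from its nearest neighbour, relative to the group's range, exceeded Dixon's limit for 4 values; chance gives about 1 in 20. Of the rFGF21 groups, 1 was among them: Gsta3 in rFGF21 library 2 was low at 323.3 CPM. PBS library 4 was high for Fmo1 (321.4 CPM), Fmo4 (21.38 CPM) and Ugt1a5 (16.71 CPM). PBS library 5 was high for Ugt1a9 (528.9 CPM) and Sult5a1 (25.03 CPM) and low for Gstm4 (41.37 CPM).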

How the results depend on the processing

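All 5 falls kept their direction in the 17 alternatives run, and the call of Sult2a8 held in 11, of Sult1b1 in 8, of Ugt2b5 and Gstp2 in 7 each, and of Ugt2b35 in 6. Other scalings and a filter of 10 reads in 4 libraries left the same 5 genes called. The count over all genes was 198 without a filter on low counts (29484 genes), 1508 with DESeq2, and 308 with limma on log2(FPKM + 1), against 516; with FPKM + 1, 171 were higher and 137 lower, against 210 and 306 with edgeR. Leaving out a library gave 131 to 486. Of conjugation enzyme genes, 0 passed without a filter, 15 with DESeq2, 0 with FPKM + 1, 1 (Sult2a8) with FPKM + 0.1, 2 (Sult2a8 and Sult1b1) with a mean FPKM of at least 1, and 0 to 4 with a library left out, against 5. For UGT genes these counts were 0, 6, 0, 0, 0 and 0 to 2, for SULT genes 0, 2, 0, 1, 2 and 0 to 2, and for GST genes 0, 6, 0, 0, 0 and 0 to 2, with 2 by limma-voom; DESeq2 called 1 FMO gene. The library whose loss gave 0 members was rFGF21 library 1, 2 or 5. Of the 5, 2 remained without rFGF21 library 3 and 1 without PBS library 1. Without each of PBS libraries 2, 4 and 5, 4 members were called, but not all were among the 5. Only 3 were without PBS library 2 or 4, and 2 without PBS library 5. The genes that entered were Ugt2b1 (without PBS library 2), Ugt2b38 (without PBS library 4), and Gstm2-ps1 and Gstm4 (without PBS library 5). With library totals in place of TMM, 10 rather than 18 genes had all rFGF21 libraries below all PBS libraries. The causes of these differences were not tested. Each fit with a library left out also had fewer samples.

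Sign changes were limited to genes that did not pass. Fmo5 was at 0.0045 with upper-quartile scaling, 0.0060 with limma-voom, 0.0907 (FPKM + 1, with either filter) and 0.0911 (FPKM + 0.1) on FPKM, and -0.0657 to 0.137 with a library left out. On FPKM, Sult1a1 was at 0.0195 (FPKM + 1, with either filter) and 0.0196 (FPKM + 0.1), and Ugt1a1 at 0.0173 (FPKM + 1, with either filter) and 0.0177 (FPKM + 0.1). With a library left out, Sult1a1 ran from -0.18 to 0.0918, Sult1d1 from -0.0326 to 0.16 and Ugt1a1 from -0.19 to 0.115. Over 542 values of the 32 members named, 467 kept direction and side of the threshold, 46 lost the call, 10 gained one and 19 changed sign. No paired analysis was possible because the columns carry no replicate numbers that match the samples in the labels. Depth limits the genes averaging under 1 FPKM.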
